A study of Mus musculus with 6 samples.

Results

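The transcription factors that mark cranial neural crest and suture mesenchyme were examined as a set of 8 listed genes: Alx1, Alx4, Prrx1, Prrx2, Twist1, Twist2, Tfap2a and Zic1. Members were the rows of the deposited table whose gene name equals a listed symbol. This gave 7 of the 8 among 28802 genes, and Zic1 is not analysed here. Messenger RNA of mouse, labelled as cranial bone, was sequenced in 6 libraries. The group called Met500uM (3 libraries) carries the label Met/α-CSH/nHA scaffold: a bone filler of nano-hydroxyapatite and α-hemihydrate calcium sulfate loaded with metformin at 500 µM. The group called Met0uM (3 libraries) is labelled control at 0 µM. Metformin is a biguanide drug used in type 2 diabetes. All samples share a model with a skull defect of 5 mm. The labels give no strain, age or time, and do not say whether the control defect received drug-free material, whether cells were cultured, or whether replicates were separate animals. Every p-value below thus sets a difference against the spread among 6 libraries whose replicates may be technical.

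The bones of the face and the front of the skull roof form from cranial neural crest, and growth continues at the sutures, seams of mesenchyme that hold undifferentiated progenitors. Alx1 and Alx4 are paired-type homeobox factors needed for the face and skull roof. Prrx1 and Prrx2 are paired-related homeobox factors of skeletal mesenchyme, and Prrx1 marks progenitors in the suture. Twist1 and Twist2 are basic helix-loop-helix factors that hold back osteoblast differentiation. Loss of a Twist1 copy closes sutures early in people and mice. Tfap2a encodes AP-2 alpha, a factor of early neural crest, and Zic1 is a zinc finger factor of neural crest and skull mesenchyme.

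Several of these genes come in pairs with similar coding sequences, so the part where each pair is most alike is shown first, because it decides whether a read can be given to a single gene. Each is the stretch of 180 coding bases, in frame and without gaps, that differs least between the partners. Sequences are from GENCODE M21 (GRCm38), 5′ to 3′ on the coding strand, and capitals mark bases that differ from the partner. The Twist1 and Twist2 stretches lie in the part coding for the helix-loop-helix domain, in exon 1 of each gene, at chr12:33958284-33958463 (plus strand) and chr1:91801795-91801974 (plus strand).
Twist1: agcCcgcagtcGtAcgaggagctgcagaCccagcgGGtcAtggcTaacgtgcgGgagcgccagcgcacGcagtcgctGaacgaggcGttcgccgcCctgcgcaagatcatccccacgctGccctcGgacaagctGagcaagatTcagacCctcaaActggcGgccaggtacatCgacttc
Twist2: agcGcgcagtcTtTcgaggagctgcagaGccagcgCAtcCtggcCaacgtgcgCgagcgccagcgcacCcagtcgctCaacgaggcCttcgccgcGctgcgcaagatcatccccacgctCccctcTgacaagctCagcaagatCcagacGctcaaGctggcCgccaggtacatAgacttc
The Prrx stretches lie in the homeobox and cross from exon 2 into exon 3. Prrx1 is at chr1:163261840-163261962 and chr1:163257886-163257942 (minus strand), and Prrx2 at chr2:30878469-30878591 and chr2:30879492-30879548 (plus strand).
Prrx1: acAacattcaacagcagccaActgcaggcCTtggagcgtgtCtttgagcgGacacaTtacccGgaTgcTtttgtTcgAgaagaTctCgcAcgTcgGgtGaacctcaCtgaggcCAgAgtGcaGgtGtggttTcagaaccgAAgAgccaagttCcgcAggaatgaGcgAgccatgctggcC
Prrx2: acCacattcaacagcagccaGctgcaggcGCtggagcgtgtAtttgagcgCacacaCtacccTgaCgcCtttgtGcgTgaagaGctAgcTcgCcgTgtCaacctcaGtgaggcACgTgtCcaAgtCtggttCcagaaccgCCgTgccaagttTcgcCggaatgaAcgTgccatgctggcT
The Alx stretches are also homeobox sequence. Alx1 is at chr10:103025135-103025278 (exon 3) and chr10:103022270-103022305 (exon 4, minus strand), and Alx4 at chr2:93668522-93668665 (exon 2) and chr2:93675296-93675331 (exon 3, plus strand).
Alx1: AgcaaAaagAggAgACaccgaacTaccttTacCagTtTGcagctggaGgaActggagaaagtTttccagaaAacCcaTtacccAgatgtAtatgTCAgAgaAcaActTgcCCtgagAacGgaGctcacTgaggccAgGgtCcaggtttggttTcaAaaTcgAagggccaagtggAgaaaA
Alx4: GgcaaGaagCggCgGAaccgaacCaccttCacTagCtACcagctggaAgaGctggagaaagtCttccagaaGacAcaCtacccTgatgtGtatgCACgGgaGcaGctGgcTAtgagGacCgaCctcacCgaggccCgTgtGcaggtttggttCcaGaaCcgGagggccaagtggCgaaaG

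The partners differed at 21 of 180 bases for Twist1 and Twist2 (88.3% identical), at 34 for Prrx1 and Prrx2 (81.1%) and at 42 for Alx1 and Alx4 (76.7%). The longest run shared exactly by any annotated transcripts of the partners was 23 bases for the Twist pair and 19 bases each for the Prrx and Alx pairs. Reads were 150 bases long per the labels, so no full-length read matches both partners exactly. The differing bases are spread along the whole stretch in each pair. Levels of partners are therefore given separately below.

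Total estimated counts ranged from 64683314 to 70955139 in Met500uM and from 63174927 to 70318881 in Met0uM. An estimated count is not a read, and how many counts a read pair gives was not settled. The groups separated on the first principal component (40.1% of the variance). On the second (19.8%), replicate 1 of Met0uM stood at -11.9, against 3.36 and 7.20 for the other control libraries, so genes named as past the test were also tested without that library. Of the osteoblast markers, 8 of 8 reached a mean of 1 FPKM (fragments per kilobase of transcript, scaled to library size) over the 6 libraries. Of these, Dmp1 averaged 4.23 FPKM in Met500uM and 0.999 FPKM in Met0uM. Of the migratory neural crest markers, Sox10 was listed at 0 in 5 of 6 libraries, and Foxd3 and Pax7 are not analysed here. No endothelial or erythroid marker reached 1 FPKM. The libraries thus hold osteoblast transcripts with mesenchyme factors, and hardly any Sox10.

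Across the 7 genes the mean FPKM over the 6 libraries ran in the order Prrx2, Prrx1, Alx4, Twist1, Alx1, Tfap2a, Twist2. Prrx2 averaged 57.6 FPKM (rank 582 of 28802 genes), Prrx1 37.9 FPKM (rank 908), Alx4 21.0 FPKM (rank 1837) and Twist1 19.3 FPKM (rank 1991). Alx1 averaged 6.43 FPKM (rank 5824), Tfap2a 1.59 FPKM (rank 10801) and Twist2 0.548 FPKM (rank 13145). FPKM is scaled by gene length, so levels can be set side by side between genes, within the error of the annotated lengths. Neighbours in this order did not overlap in any library of either group, with 1 exception: Alx4 and Twist1 changed places between the groups. All 7 genes passed the filter on low counts.

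**Figure D1:**
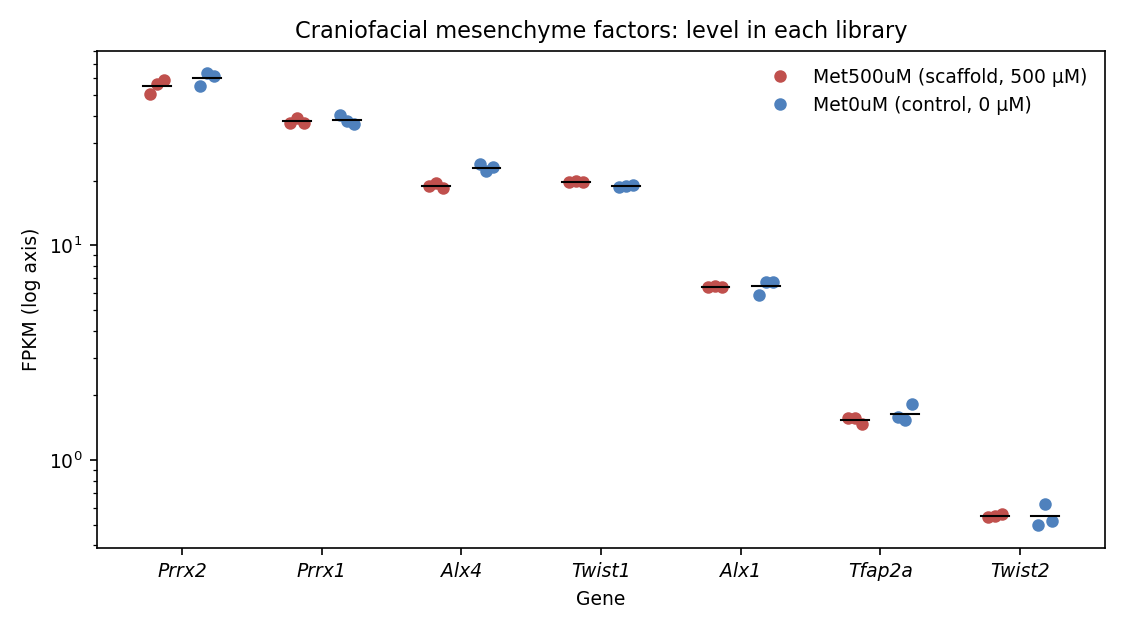
FPKM (log axis) of each factor in each library, with Met500uM libraries in red on the left and Met0uM libraries in blue on the right of each gene; black lines are group means. Levels run from 57.6 FPKM for Prrx2 to 0.548 FPKM for Twist2, and the groups stand apart downward for Alx4 and narrowly upward for Twist1.

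Between the groups, Alx4 fell in Met500uM and the other 6 factors did not pass the test. The test was edgeR's quasi-likelihood test on the estimated counts, two-sided, with Benjamini-Hochberg adjustment over 17375 genes and a threshold of 0.05. It called 4.31% of all genes, 2.85% higher and 1.46% lower. Among the members 1 of 7 (14.3%) was lower and 0 were higher, so the count of calls rests on a single gene. At an unadjusted p under 0.05, edgeR, DESeq2 and limma with a filter on low values also gave 0 higher members, while limma without that filter gave 1. Over all tested genes, that level was passed by 18.1% with edgeR, 10.9% with DESeq2, 22.6% with limma and its filter, and 14.1% with limma without it. The median log2 fold change (Met500uM over Met0uM) was 0.02 over the 7 members and -0.00450 over all tested genes.

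Alx4 (ENSMUSG00000040310, chromosome 2, 93642384 to 93681339, plus strand, GRCm38) stood at 18.8, 19.5 and 18.5 FPKM in Met500uM libraries 1 to 3, against 23.8, 22.1 and 23.0 FPKM in Met0uM libraries 1 to 3. Every Met500uM library was below every Met0uM library; in CPM (counts scaled to library size), groups failed to overlap in this direction in 11.4% of all tested genes. Behind these values were 9389 to 10717 estimated counts in Met500uM and 11731 to 12479 in Met0uM. The log2 fold change was -0.24 ± 0.05 (SE; edgeR adjusted p = 0.0241), a fold of 0.849 with a 95% interval from 0.785 to 0.917. In bulk RNA, fewer cells that express a gene and less of its RNA per cell cannot be told apart.

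The Alx4 call sat close to the threshold. Its edgeR adjusted p was 0.0473 without replicate 1 of Met0uM and 0.0438 without replicate 1 of Met500uM, and the call was lost without replicate 2 or 3 of Met500uM (0.0758 and 0.123) and without replicate 2 or 3 of Met0uM (0.0608 and 0.101). It was also lost with no count filter (0.0505), with limma without a filter (0.0561) and with replicate number as a block (0.0552). The log2 fold change stayed between -0.27 and -0.22 in all 15 alternatives.

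**Figure D2:**
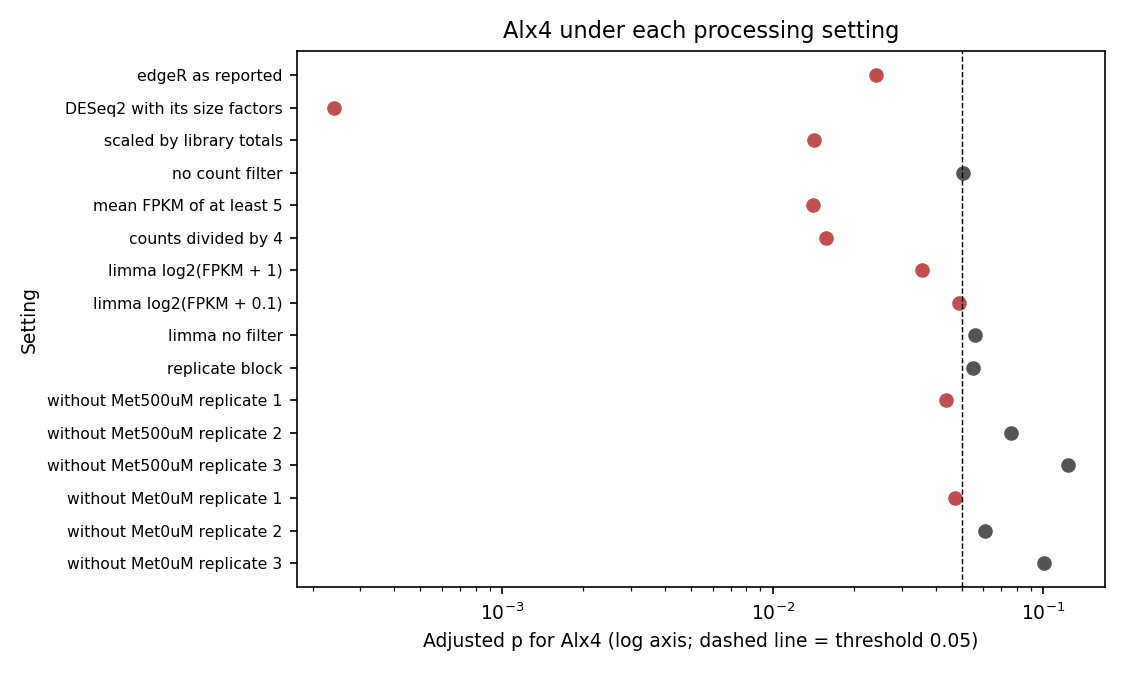
Adjusted p of Alx4 (log axis) under the reported fit and each alternative, listed down the page; the dashed line is the threshold of 0.05, and red points passed it. The call held in 8 of 15 alternatives and the points that missed lie between 0.0505 and 0.123.

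Its relative Alx1 (ENSMUSG00000036602, chromosome 10) did not pass the test. Alx1 stood at 6.37, 6.45 and 6.39 FPKM in Met500uM, against 5.89, 6.76 and 6.72 FPKM in Met0uM. The Met500uM libraries fell inside the control range. The log2 fold change was 0.03 ± 0.07 (SE; edgeR adjusted p = 0.891), and the 95% interval of the fold ran from 0.916 to 1.13.

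Prrx2 and Prrx1 were the most abundant members in every library. Prrx2 (ENSMUSG00000039476, chromosome 2, 30834972 to 30881251, plus strand, GRCm38) stood at 50.6, 56.5 and 59.0 FPKM in Met500uM, against 54.9, 63.1 and 61.4 FPKM in Met0uM. The groups overlapped, with Met500uM replicate 1 the lowest library. The log2 fold change was -0.07 ± 0.07 (SE; edgeR adjusted p = 0.675), with a 95% interval of the fold from 0.849 to 1.07. Prrx1 (ENSMUSG00000026586, chromosome 1, 163245119 to 163313710, minus strand, GRCm38) stood at 36.9, 39.2 and 36.9 FPKM in Met500uM, against 40.2, 37.7 and 36.8 FPKM in Met0uM. These ranges also overlapped. Prrx1 had the most estimated counts of any member, 29345 to 33738 in Met500uM and 31084 to 32759 in Met0uM. Its log2 fold change was 0.02 ± 0.06 (SE; edgeR adjusted p = 0.903), and its fold interval, 0.931 to 1.10, was narrow. The table lists 5 transcripts under Prrx1 and 4 under Prrx2 and gives a single value per gene, so isoforms were not separated.

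Twist1 was far above Twist2 in both groups. Twist1 (ENSMUSG00000035799, chromosome 12, 33957671 to 33959829, plus strand, GRCm38) stood at 19.6, 19.8 and 19.7 FPKM in Met500uM, against 18.7, 18.9 and 19.1 FPKM in Met0uM. The libraries of a group lay very close together, and each Met500uM library was above each Met0uM library; in CPM, 12.5% of all tested genes had groups apart in this direction. The difference was small and did not pass (log2 fold change 0.10 ± 0.06 SE, edgeR adjusted p = 0.425; 95% interval of the fold from 0.978 to 1.17). Twist2 (ENSMUSG00000007805, chromosome 1, 91801461 to 91848028, plus strand, GRCm38) stood at 0.543, 0.547 and 0.559 FPKM in Met500uM, against 0.497, 0.621 and 0.521 FPKM in Met0uM. The Met500uM values fell inside the control range. Twist2 rested on 128 to 140 estimated counts in Met500uM and 111 to 155 in Met0uM. At this depth its fold interval was wide, from 0.772 to 1.39 (log2 fold change 0.05 ± 0.19 SE, edgeR adjusted p = 0.931). An annotated antisense gene, Gm29100, shares 1477 exonic bases with Twist2. No source used here says whether counting used the strand, so some of these reads may belong to it.

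Tfap2a (ENSMUSG00000021359, chromosome 13, 40715302 to 40738376, minus strand, GRCm38) was low, at 1.57, 1.57 and 1.46 FPKM in Met500uM, against 1.59, 1.53 and 1.82 FPKM in Met0uM. The groups overlapped, and Met0uM replicate 3 was the highest library. The log2 fold change was -0.06 ± 0.11 (SE; edgeR adjusted p = 0.818), with a fold interval from 0.813 to 1.13 and 519 to 620 estimated counts in Met500uM and 547 to 687 in Met0uM. Annotated antisense genes share exonic bases with Tfap2a as well.

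**Figure D3:**
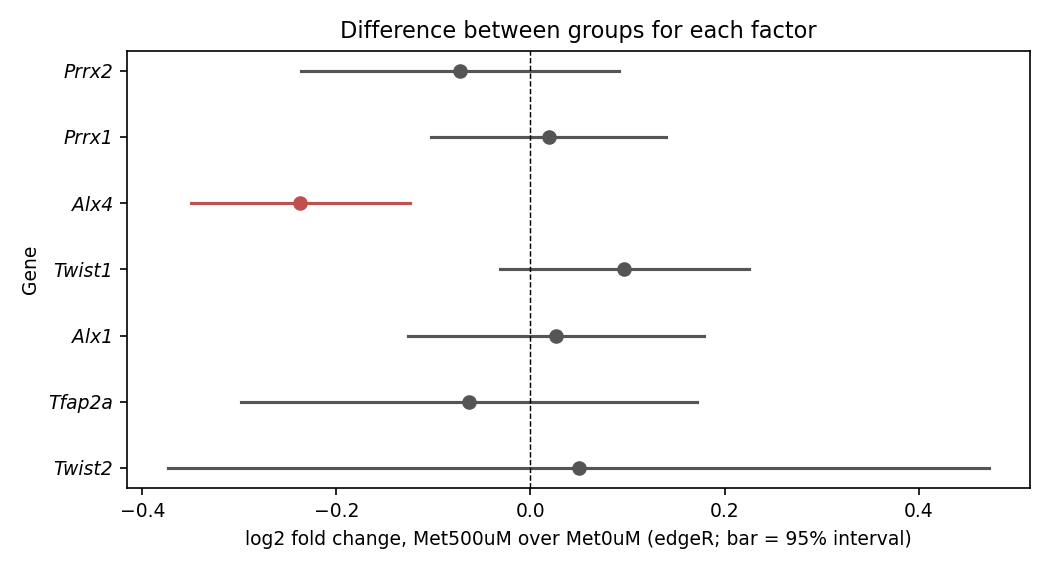
Log2 fold change of each factor, Met500uM over Met0uM, from edgeR; points are estimates, bars are 95% intervals and the dashed line marks no difference. Alx4, in red, lies at -0.24 with an interval below 0, the intervals of the other 6 genes (grey) include 0, and that of Twist2 is the widest.

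Tfap2b, which encodes AP-2 beta and is also active in neural crest, was more abundant than Tfap2a and fell in Met500uM. Its coding sequence was compared with Tfap2a in the same way, in exon 6 of Tfap2a at chr13:40717163-40717342 (minus strand) and exon 7 of Tfap2b at chr1:19234111-19234290 (plus strand), with capitals again marking differing bases.
Tfap2a: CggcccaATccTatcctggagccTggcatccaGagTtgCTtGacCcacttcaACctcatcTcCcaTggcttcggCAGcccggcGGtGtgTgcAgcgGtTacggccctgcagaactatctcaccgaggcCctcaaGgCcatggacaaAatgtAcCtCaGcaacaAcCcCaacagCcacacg
Tfap2b: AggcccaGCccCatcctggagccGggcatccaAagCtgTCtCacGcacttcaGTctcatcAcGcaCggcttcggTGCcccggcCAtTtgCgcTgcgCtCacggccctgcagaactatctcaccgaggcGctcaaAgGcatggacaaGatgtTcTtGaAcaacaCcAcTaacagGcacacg
These stretches differed at 38 of 180 bases, and the longest exact run shared by transcripts of the genes was 29 bases. Tfap2b (ENSMUSG00000025927, chromosome 1, 19208914 to 19238576, plus strand, GRCm38) stood at 6.07, 6.01 and 5.88 FPKM in Met500uM, against 7.80, 7.28 and 7.54 FPKM in Met0uM. The groups did not overlap. The log2 fold change was -0.29 ± 0.05 (SE; edgeR adjusted p = 0.0109), and the adjusted p was 0.0264 without replicate 1 of Met0uM, 0.0658 without replicate 3 of Met500uM and 0.0535 without replicate 3 of Met0uM.

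Ratios within a library do not depend on how libraries are scaled to each other, and 5 were compared. The Alx4 to Twist1 ratio of FPKM was 0.961, 0.986 and 0.942 in Met500uM, against 1.27, 1.17 and 1.20 in Met0uM. Alx4 was thus just below Twist1 in each Met500uM library and above it in each Met0uM library. The Alx4 to Alx1 ratio was 2.96, 3.03 and 2.90 in Met500uM, against 4.04, 3.26 and 3.43 in Met0uM, again without overlap. The Tfap2b to Tfap2a ratio averaged 3.91 ± 0.0948 in Met500uM and 4.60 ± 0.406 in Met0uM (SD, n = 3 each) and did not overlap either. The Prrx2 to Prrx1 ratio averaged 1.47 ± 0.116 in Met500uM and 1.57 ± 0.176 in Met0uM, and the Twist1 to Twist2 ratio 35.8 ± 0.551 in Met500uM and 35.0 ± 3.99 in Met0uM (SD, n = 3 each). Both of these overlapped. Exact two-sided permutation tests over the libraries gave p = 0.1 for each ratio that did not overlap, p = 0.6 for Prrx2 to Prrx1 and p = 1 for Twist1 to Twist2. With 3 libraries against 3, 0.1 is the smallest p possible, and after adjustment over the 5 ratios the smallest was 0.167. The ratios were chosen after their values were seen. Each ratio without overlap holds Alx4 or Tfap2b, which were already called, so these p-values add no support.

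**Figure D4:**
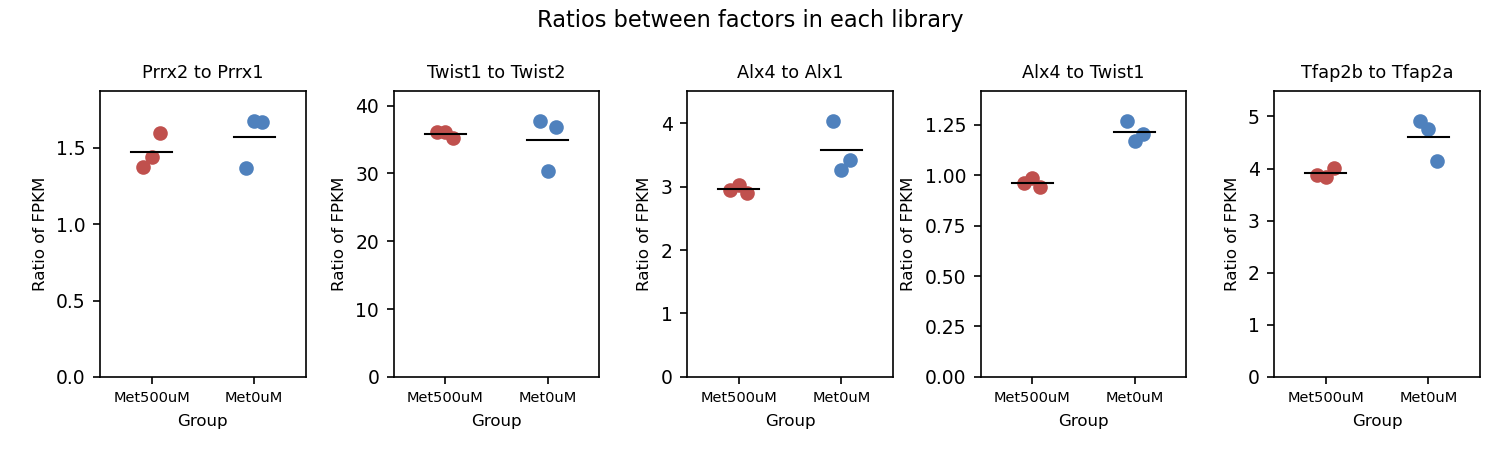
Ratio of FPKM between factors in each library, with Met500uM (red) left of Met0uM (blue) and black lines at the group means; every axis starts at 0. The Alx4 to Twist1 ratio averages 0.963 in Met500uM and 1.21 in Met0uM, while the Prrx2 to Prrx1 and Twist1 to Twist2 ratios overlap between groups.

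The neighbour Ext2, a heparan sulfate polymerase gene on the opposite strand, overlaps the Alx4 gene but shares 0 exonic bases with it. Ext2 averaged 13.2 ± 0.605 FPKM in Met500uM and 12.8 ± 0.542 FPKM in Met0uM (SD, n = 3 each) and did not pass (edgeR adjusted p = 0.525). Among 13209 genes with a mean of at least 1 CPM, those whose pattern over the 6 libraries lay closest to that of Alx4 were Zgpat and Psmf1. Their log2 CPM, each centred on its own mean, differed from that of Alx4 by a root mean square of 0.0139 and 0.0169. Picked for this match, they were bound to have fold changes near that of Alx4. Zgpat, a zinc finger gene, fell by 0.23 ± 0.05 on the log2 scale (SE; adjusted p = 0.0364 with edgeR, and 0.0795 without replicate 1 of Met0uM), and Psmf1, a proteasome inhibitor gene, stood at -0.24 ± 0.06 and did not pass (SE; adjusted p = 0.0549 with edgeR).

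The factors around these members were described with 4 further lists of 81 genes, of which 67 were tested. In all, 3 were higher, 6 were lower and 58 did not pass, which is 13.4% called against 4.31% of all tested genes. Among genes with a mean of at least 5 FPKM, 7 of 35 of these factors were called, against 8.19% of all such genes. The lists were chosen with earlier results of these data known, so neither share can show that such factors are called more often. The median log2 fold change was -0.02 over the 67 genes. Of the 5 tested paralogues of the members, Tfap2b fell and 4 did not pass.

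Of the 11 tested partners and antagonists of Twist, 1 fell and 10 did not pass, where 1.46% of all tested genes were called lower. The gene that fell was Id4, which encodes an inhibitor that sequesters helix-loop-helix partners. Id4 stood at 27.8, 26.8 and 27.5 FPKM in Met500uM, against 31.3, 35.1 and 34.4 FPKM in Met0uM. The groups did not overlap, and the log2 fold change was -0.26 ± 0.06 (SE; edgeR adjusted p = 0.0334). Annotated antisense transcripts share exonic bases with Id4. The most abundant gene of the list was Snai1, a zinc finger repressor of epithelial genes, at 74.3 ± 7.73 FPKM in Met500uM and 70.1 ± 0.543 FPKM in Met0uM (SD, n = 3 each; edgeR adjusted p = 0.409).

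Of 33 other tested factors of neural crest and skull mesenchyme, 2 rose, 0 fell and 31 did not pass. Among all tested genes 2.85% were called higher and 1.46% lower. At an unadjusted p under 0.05, edgeR and DESeq2 each had 6 genes higher and 3 lower, where 18.1% of all tested genes passed that level with edgeR and 10.9% with DESeq2. DESeq2 with adjustment, which called 9.61% of all its tested genes, gave 4 higher and 0 lower. Both genes that rose are distal-less homeobox factors of skeletal cells. Dlx3 stood at 2.29, 2.54 and 2.66 FPKM in Met500uM, against 1.51, 1.68 and 1.60 FPKM in Met0uM (log2 fold change 0.68 ± 0.12 SE, edgeR adjusted p = 0.00951). Dlx5 stood at 14.6, 16.8 and 16.1 FPKM in Met500uM, against 13.6, 13.1 and 13.4 FPKM in Met0uM (log2 fold change 0.28 ± 0.07 SE, edgeR adjusted p = 0.0426). For both genes every Met500uM library was above every Met0uM library. Six2, a homeobox factor and the most abundant of the list, averaged 33.7 ± 1.67 FPKM in Met500uM and 35.9 ± 0.476 FPKM in Met0uM (SD, n = 3 each; edgeR adjusted p = 0.650).

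Of 18 tested genes of suture progenitors and suture signalling, 1 rose, 4 fell and 13 did not pass. Over all tested genes, 2.85% were called higher and 1.46% lower. Grem1, a secreted BMP antagonist, stood at 2.82, 2.50 and 2.91 FPKM in Met500uM, against 1.65, 1.61 and 1.77 FPKM in Met0uM (log2 fold change 0.75 ± 0.10 SE, edgeR adjusted p = 0.00249). Postn, periostin of the periosteum and suture matrix and the most abundant gene of the list, stood at 1665, 1697 and 1789 FPKM in Met500uM, against 2219, 2382 and 2333 FPKM in Met0uM (log2 fold change -0.39 ± 0.06 SE, edgeR adjusted p = 0.00349). The groups were well apart for each of these genes. The other falls were smaller. Axin2, a Wnt target that marks suture stem cells, averaged 8.55 ± 0.304 FPKM in Met500uM and 10.3 ± 0.462 FPKM in Met0uM (SD, n = 3 each; log2 fold change -0.23, edgeR adjusted p = 0.0384). Tgfbr2, a TGF-beta receptor, averaged 13.8 ± 0.672 FPKM in Met500uM and 16.7 ± 0.959 FPKM in Met0uM (SD, n = 3 each; log2 fold change -0.24, edgeR adjusted p = 0.0409). Il11ra1, the interleukin 11 receptor gene linked to suture closure in people, averaged 27.5 ± 1.02 FPKM in Met500uM and 33.6 ± 1.21 FPKM in Met0uM (SD, n = 3 each; log2 fold change -0.25, edgeR adjusted p = 0.0321). Il11ra1 has near-identical copies in the mouse genome, so its reads may be split between them.

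When a library was left out, Grem1 and Postn kept their calls in all 6 cases. Dlx3 lost its call without replicate 3 of Met500uM (edgeR adjusted p = 0.0553). Id4 and Il11ra1 lost theirs without replicate 2 or 3 of either group (adjusted p from 0.0847 to 0.154 over both genes). Dlx5 lost its call in 5 cases, all but replicate 1 of Met500uM (0.0755 to 0.169). Axin2 and Tgfbr2 lost theirs in all 6 cases, replicate 1 of Met0uM among them (0.0616 to 0.190 over both genes).

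**Figure D5:**
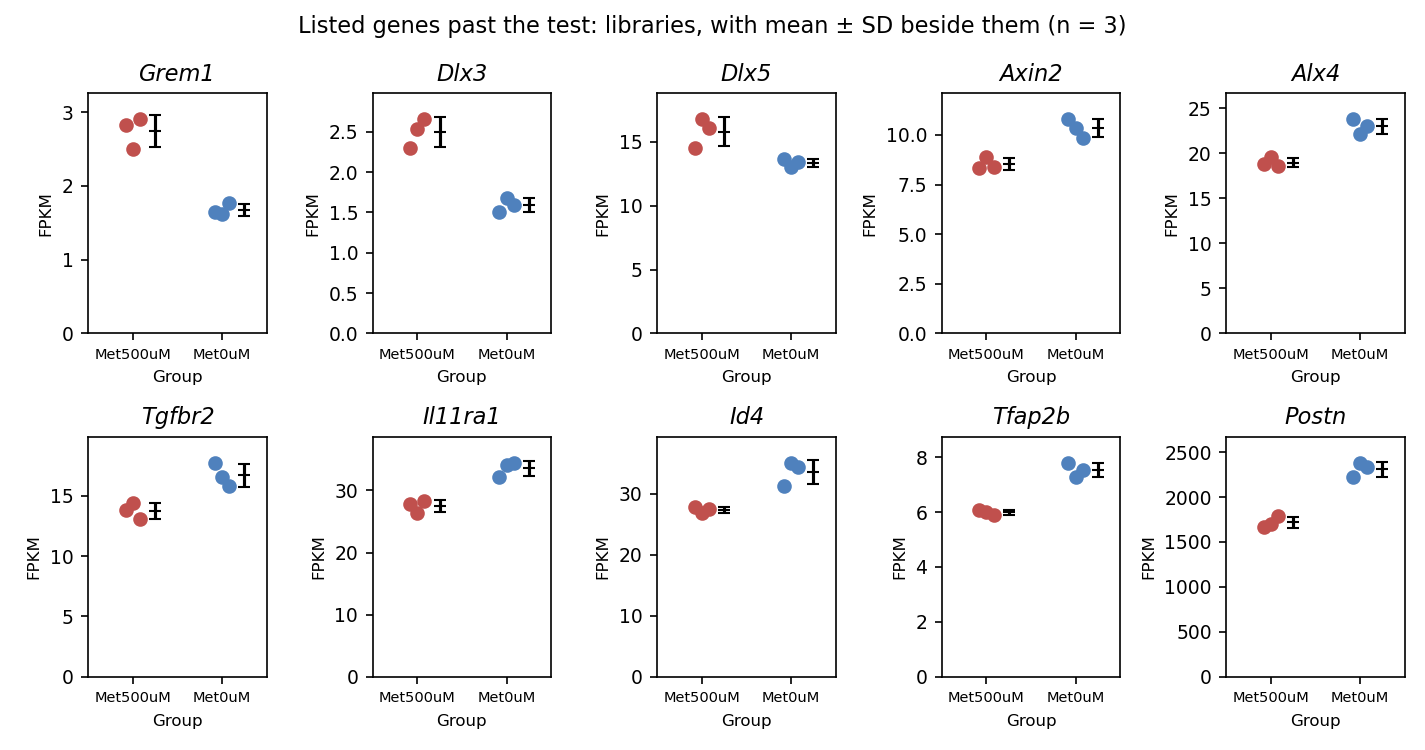
FPKM in each library for Alx4 and the 9 genes of the wider lists that passed the test, Met500uM (red) left of Met0uM (blue), with mean and SD beside the points (n = 3 each); every axis starts at 0. Grem1, Dlx3 and Dlx5 are higher in Met500uM, the other 7 are lower, and no gene shown has overlapping groups.

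Markers of other cell types and of bone-forming cells also differed between the groups. Beside the marker counts in this paragraph, 2.85% of all tested genes were called higher and 1.46% lower. Of 8 osteoblast markers 5 rose. The sum over the 8 was 5428 to 5558 FPKM in Met500uM and 4425 to 4878 FPKM in Met0uM. Ibsp alone averaged 2116 FPKM in Met500uM and 1266 FPKM in Met0uM. Col1a1 and Spp1 did not pass. Runx2 averaged 25.0 FPKM in Met500uM and 29.0 FPKM in Met0uM. It did not pass either (log2 fold change -0.17, edgeR adjusted p = 0.179). Of 5 tested chondrocyte markers Col2a1 and Hapln1 rose, and the defining marker Acan was near 0. Sums over the list were 85.7 to 86.5 FPKM in Met500uM and 60.9 to 68.1 FPKM in Met0uM. Most of the sum was Col2a1, at 56.4 FPKM in Met500uM and 31.8 FPKM in Met0uM. The other tested markers, Sox9, Sox5 and Sox6, pointed down (log2 fold changes -0.13, -0.03 and -0.29) and did not pass edgeR. DESeq2 with adjustment called 2 chondrocyte markers higher and 1 lower. Of 6 tested dermal fibroblast markers Cd34 and Pdgfra fell, with sums of 253 to 270.3 FPKM in Met500uM and 271 to 291 FPKM in Met0uM. Of 8 kidney tubule markers Kap and Slc34a1 fell, with sums of 3.08 to 6.38 FPKM in Met500uM and 13.1 to 15.2 FPKM in Met0uM. Of 6 tested meningeal markers Col15a1 rose, with sums of 51.6 to 58.8 FPKM in Met500uM and 50.6 to 55.3 FPKM in Met0uM. The neuronal marker Tubb3, the 1 tested gene of its list, rose as well. Without replicate 1 of Met0uM these 13 marker genes kept their calls (edgeR adjusted p from 5.07e-05 to 0.0244), an alternative chosen after seeing the data. No gene of the epithelial, leukocyte, endothelial, erythroid or muscle lists passed edgeR or DESeq2 with adjustment. Under an unadjusted p of 0.05 edgeR had 2 of these genes, both of muscle, and DESeq2 had 1 of muscle and 1 of endothelium. The part of these cell types in the lower Alx4 and Tfap2b was not tested.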

How the data were processed

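Poly(A) RNA from 6 libraries was sequenced in paired reads of 150 bases, per the labels. Tools listed in the submitters' processing notes, with no role, are HISAT2, StringTie, fastp, edgeR, DESeq2 and bcl2fastq 2.20; no source used here gives the genome build. The authors deposited an FPKM and an estimated count for each of 28802 genes and library, FPKM being corrected by the authors for library size and transcript length. The commonest low value of the deposited estimated counts is 4, so a read pair may give several counts. The factor was not settled, counts are printed as deposited, and counts divided by 4 were an alternative. Total estimated counts ran from 63174927 to 70955139. Coordinates are those of the table where GENCODE M21 (GRCm38) has the same.

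Estimated counts were rounded, filtered with filterByExpr (minimum count 10), scaled by TMM and tested with edgeR 4.0.16 in R 4.3.3, using the 6 libraries and no covariate. The procedure was also run on counts simulated from its own fitted model, which cannot show how well the test suits these data. Alternatives were DESeq2 1.42.0, limma 3.58.1 on log2(FPKM + 1) or log2(FPKM + 0.1), other scalings and filters, a replicate block, and leaving out each library. The members and lists were chosen with earlier results of these data known. Genes named outside the members were those of the lists past the test, the most abundant gene of each list, the genes most alike Alx4, and neighbours or relatives of a member. Ratios were chosen after their values were seen. Zic1 is not analysed here, and some listed genes are not reported here.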

Additional observations from a re-analysis of the deposited data

How the results depend on the processing

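Prrx2, Twist1, Alx4 and Tfap2b kept their direction under all 15 alternatives. Postn kept its call under all 15 and Grem1 under the 14 that tested it. The number of members lower in Met500uM, 1 as reported, was 0 with no count filter, with limma without a filter and with the replicate block, and ranged from 0 to 1 when a library was left out. The number of the wider factors higher, 3 as reported, was 6 with DESeq2 and 1 at a mean FPKM of at least 5, and ranged from 1 to 4 when a library was left out. The number lower, 6 as reported, was 2 with no count filter, 3 with limma on log2(FPKM + 0.1), 3 with limma without a filter and 2 with the replicate block, and ranged from 1 to 5 when a library was left out. The fit without the filter tests more genes, and the fit at a higher FPKM fewer. The cause of the other shifts was not tested. Same-numbered libraries did not deviate together (correlations of -0.0613, -0.0141 and 0.00353). Libraries of different numbers gave -0.108 to 0.109. With 3 libraries per group, this check cannot tell whether the numbers pair the samples. With the replicate block Alx4 stood at -0.24 on the log2 scale with an adjusted p of 0.0552 (edgeR). Directions near 0 turned. Alx1 was -0.0096 with library totals, -0.0085 with limma on log2(FPKM + 1) and without a filter, and -0.0093 on log2(FPKM + 0.1). Prrx1 was -0.017 with library totals, -0.0196 with limma on log2(FPKM + 1) and without a filter, and -0.0200 on log2(FPKM + 0.1). When a library was left out, log2 fold changes ranged from -0.0411 to 0.0646 for Alx1, from -0.0049 to 0.0501 for Prrx1, from -0.0182 to 0.153 for Twist2 and from -0.109 to 0.0178 for Tfap2a, and the Twist1 to Twist2 log2 ratio difference, an alternative chosen after seeing the data, ranged from -0.0559 to 0.10. Depth limits Twist2 and Tfap2a most.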
